A study of Mus musculus with 4 samples.

Results

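The S100 genes examined here were 9 members of one family, S100a1, S100a4, S100a6, S100a8, S100a9, S100a10, S100a11, S100a13 and S100a16, taken by symbol from the 32285 genes that the count tables list. All 9 were detected, and they were followed across the cell classes of MC38 tumors in 4 single-cell RNA sequencing (scRNA-seq) libraries, each the only library of its group. MC38, a mouse colon cancer line, was injected with Matrigel under the skin of young adult C57BL/6 mice, and how many mice each library holds is not given in the sources used here. The groups were WT IgG (wild-type RAC1, isotype control antibody), WT anti-PD1 (wild-type RAC1, an antibody that blocks the checkpoint receptor PD1), A159V IgG (RAC1 A159V, isotype control) and A159V anti-PD1 (RAC1 A159V, PD1 blockade). RAC1 is a small GTPase, and the A159V substitution was knocked in at both copies of the endogenous gene with CRISPR-Cas9, in cells grown from a clone. The mutation cannot be told apart from other features of that clone. Beads split the CD45+ from the CD45− cells, which were remixed before loading, so class sizes were partly set by that step and are not compared.

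S100 proteins are small calcium-binding proteins that mostly work as dimers. S100a8 and S100a9 pair as calprotectin, an abundant cytosolic complex of neutrophils that is released in inflammation and signals through Tlr4 and Ager (RAGE). S100a4 binds non-muscle myosin and is known from invasive tumor cells and from leukocytes, S100a6 (calcyclin) binds Cacybp and annexins, S100a10 and S100a11 form complexes with annexins at membranes, and S100a13 takes part in the unconventional export of Fgf1 and Il1a.

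The 9 genes lie on chromosome 3 (GRCm38, GENCODE M21). A first block of 185 kb holds 7 of them, from S100a1 (chr3:90511034-90514392, minus strand) through S100a13, S100a16, S100a4, S100a6 and S100a8 on the plus strand to S100a9 (chr3:90692632-90695721, minus strand). S100a11 (chr3:93520488-93526287) and S100a10 (chr3:93555080-93564643), both on the plus strand, form a second block of 44.2 kb at a distance of 2.82 Mb. In GENCODE M21 the gene Gm42674 overlaps S100a4 on the same strand, and any effect on the S100a4 counts was not tested. RefSeq gave promoter windows for 8 of the 9 members (all but S100a10). The windows of S100a4, S100a8 and S100a9 are shown, 5′ to 3′ on each gene's own strand, because these 3 genes carry the largest differences described below. They are chr3:90603520-90603769 (plus strand) for S100a4, chr3:90668821-90668977 (plus strand) for S100a8, cut short where the GENCODE gene begins, and chr3:90695722-90695971 (minus strand) for S100a9, with a match to a motif in capitals.
S100a4: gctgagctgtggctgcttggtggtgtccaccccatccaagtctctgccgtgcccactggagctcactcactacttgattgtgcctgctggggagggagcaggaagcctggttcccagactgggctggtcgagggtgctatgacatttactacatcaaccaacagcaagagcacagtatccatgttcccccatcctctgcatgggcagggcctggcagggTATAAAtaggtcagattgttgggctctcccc
S100a8: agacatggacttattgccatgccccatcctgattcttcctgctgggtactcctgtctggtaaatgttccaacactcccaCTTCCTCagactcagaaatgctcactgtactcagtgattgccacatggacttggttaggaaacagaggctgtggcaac
S100a9: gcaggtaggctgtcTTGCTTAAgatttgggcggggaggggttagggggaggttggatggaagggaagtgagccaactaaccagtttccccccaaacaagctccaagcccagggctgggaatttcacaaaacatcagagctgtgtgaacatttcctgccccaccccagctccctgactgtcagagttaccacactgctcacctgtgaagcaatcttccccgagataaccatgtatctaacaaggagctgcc
The capitals mark TATAAA, the TATA box letters, 31 bases before the RefSeq start of S100a4. In S100a8 they mark CTTCCTC, which is GAGGAAG (letters bound by ETS factors) on the other strand, 171 bases before the RefSeq start. In S100a9 they mark TTGCTTAA, a match to TTGCNNAA (C/EBP factors), 236 bases before the start. Among 32851 RefSeq windows of 250 bases before a start, searched on both strands, 12.4% held TATAAA, 10.6% held GAGGAAG and 9.56% held TTGCNNAA. The full S100a8 window also held TATAAA, 30 bases before the RefSeq start and so within the 93 bases left out of the printed stretch because they lie inside the GENCODE gene, and TGANTCA (AP-1), present in 6.75% of windows, was found for S100a11 and S100a16. These are matches of letters, and binding was not measured.

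After filtering, 29184 of 33228 deposited cells were analyzed, with median depths of 3343 to 4179 unique molecular identifiers (UMIs) per cell in the 4 libraries. Cells were clustered without S100 genes, and classes were named "-like" from marker lists that hold no S100 gene. A level is the sum of a gene's UMIs over the cells of a class in 1 library, divided by all UMIs of that profile and given as CPM, so that every profile has the same total. Ranges in parentheses are 95% intervals that cover counting error only. Because each group was 1 library, no test between groups was possible. A ratio is log2 of (CPM + 1) between 2 libraries, and a gene was counted as past 2-fold when that ratio was 1 or more in size with an interval that left out 0, among genes averaging at least 20 CPM. The share of all genes past this limit is given beside each count of members. CPM from 3′ tags is not adjusted for length, so each gene is compared across classes and libraries and not with the other members.

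Values for the 4 libraries are given below in the order WT IgG, then WT anti-PD1, then A159V IgG, then A159V anti-PD1. Neutrophil-like cells (96, 564, 101 and 218) came from a cluster in which 11 neutrophil markers were detected in at least 10% of cells. The 12 markers summed to 13167 to 15231 CPM, but single markers differed between libraries. Retnlg was at 829, 99.7, 2011 and 2386.5 CPM, and Slpi at 1628, 1042, 1907 and 1878 CPM, both lowest in WT anti-PD1. Csf3r, at 872, 1023, 670 and 853 CPM, and Cxcr2, at 451, 512, 306 and 329 CPM, were highest there. In the same cells the 10 classical monocyte markers summed to 3213, 1191, 4472 and 1798 CPM. Tumor-like cells (2031, 5, 2809 and 2100) were named by Rhox5, Prl2c2, Prl2c3 and Hmga2. The epithelial markers Krt8, Krt18, Krt19 and Epcam were near 0 in them, with Krt8 at 0.124, 0.191 and 0.318 CPM in WT IgG, A159V IgG and A159V anti-PD1. WT anti-PD1 had too few tumor-like cells for any comparison. Its immune classes carried more stromal RNA than those of the other libraries, with Col1a1 at 382 CPM in neutrophil-like, 250 CPM in monocyte-like and 214 CPM in T-like cells, against 9.73 to 58.5 CPM in the same classes elsewhere. The tumor marker Rhox5 was instead lower there than in WT IgG. It was at 24.4, 20.9, 37.7 and 13.3 CPM in neutrophil-like, monocyte-like, macrophage-like and T-like cells of WT IgG. In WT anti-PD1 it was at 0, 4.64, 0.920 and 0.612 CPM. Pairs of libraries shared 13 to 22 cell barcodes. Rac1 itself was at 437, 410 and 406 CPM in tumor-like cells of WT IgG, A159V IgG and A159V anti-PD1, and 3′ counts do not show its genotype.

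**Figure D1:**
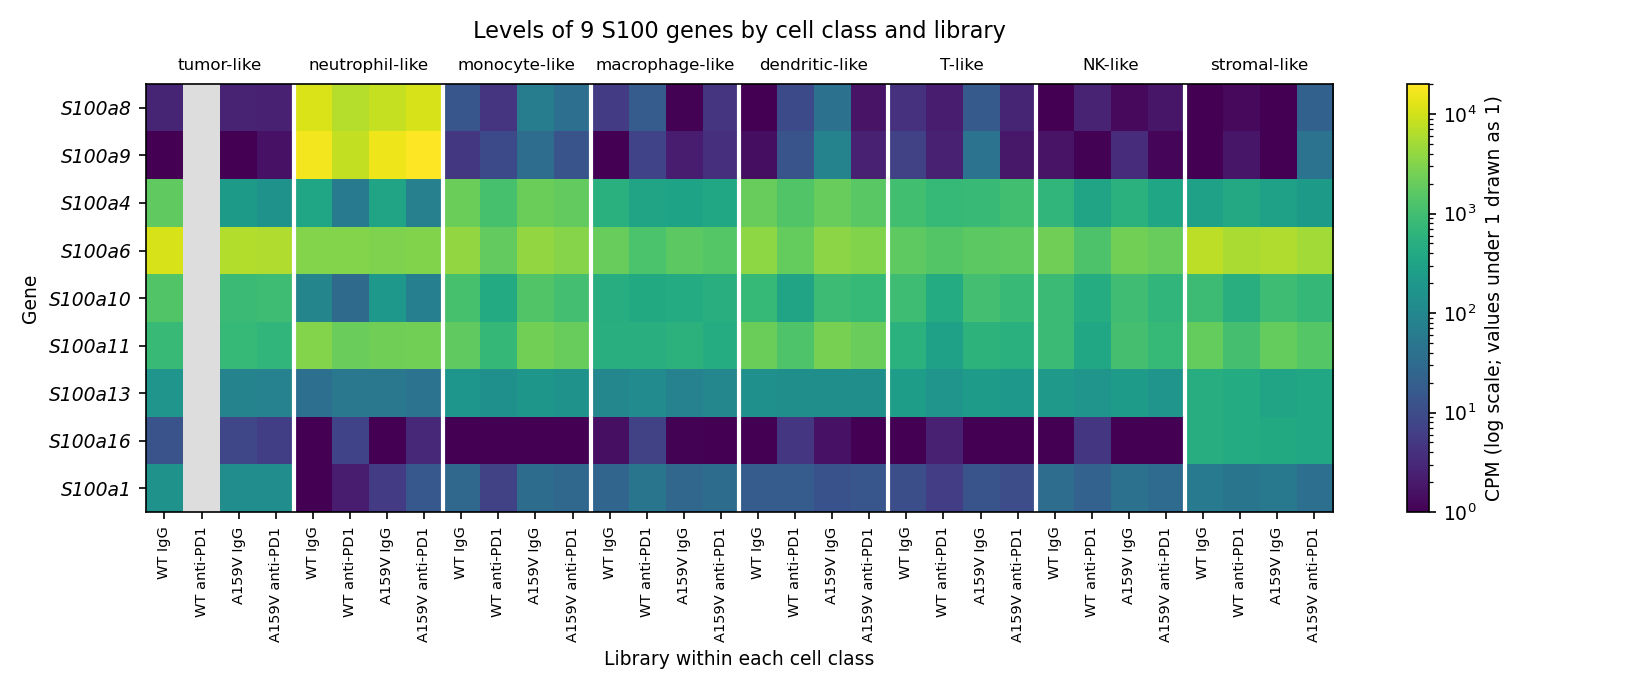
Heat map of the level of each S100 gene (rows, CPM as color on a log scale, values under 1 drawn as 1) in each library within 8 cell classes (columns), with gray where a class had under 50 cells. S100a8 and S100a9 are brightest in neutrophil-like cells and S100a16 in stromal-like cells, and S100a4 in tumor-like cells is at 1811 CPM in WT IgG against 224 and 163 CPM in the A159V libraries.

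S100a8 and S100a9, the calprotectin genes, were concentrated in neutrophil-like cells of every library. The CPM of S100a8 in these cells was 11615 (11099 to 12148), 6614 (6452 to 6780), 8239 (7817 to 8678) and 11190 (10829 to 11560). The CPM of S100a9 was 16681 (16062 to 17318), 7944 (7766 to 8125), 15715 (15130 to 16317) and 19471 (18994 to 19957). WT anti-PD1 was the lowest of the 4 libraries for both genes, and its intervals overlapped none of the others. The markers Retnlg and Slpi were also lowest there, while Csf3r and Cxcr2 were highest. Whether the neutrophil-like cells of the libraries were alike in state was not tested. Neutrophil-like cells held 86.5%, 96.0%, 73.2% and 86.3% of all S100a8 UMIs of the analyzed cells, and 96.9%, 97.8%, 87.6% and 94.9% of all S100a9 UMIs.

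In single cells both transcripts formed a broad range and not a fixed amount. Together they made up a median of 2.08%, 0.874%, 1.85% and 2.39% of the UMIs of a neutrophil-like cell, and the highest cells reached 19.0%, 11.9%, 14.3% and 14.5%. Neither transcript was found in 9, 52, 4 and 9 of the neutrophil-like cells. The 2 genes went together from cell to cell, with Pearson r of 0.87, 0.75, 0.79 and 0.83 between them (a description over the cells of 1 library, which share depth and handling). After each cell was thinned to 1000 UMIs, 80.4%, 80.6%, 88.6% and 94.2% of neutrophil-like cells had an S100a8 UMI, against 0.186% to 0.385% of T-like cells, which should lack the gene. Thinning left out 4, 28, 13 and 28 shallower neutrophil-like cells, and before it the shares were 82.3%, 84.4%, 91.1% and 94.0%. Median depths were 1422.5, 1524, 1433 and 1315.5 UMIs in neutrophil-like and 2787, 3071.5, 1643 and 2199.5 UMIs in T-like cells. For S100a9 these shares were 82.6%, 81.0%, 93.2% and 88.9%, against 0.0770% to 0.305% in T-like cells. The thinned shares in WT anti-PD1 lay close to those in WT IgG, while the median share of UMIs per cell was lower.

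Outside neutrophil-like cells the pair was sparse, and its proportion differed in tumor-like and monocyte-like cells of WT IgG and the A159V libraries. The ratio of S100a8 to S100a9 UMIs was 0.696 (0.657 to 0.738), 0.833 (0.805 to 0.861), 0.524 (0.492 to 0.559) and 0.575 (0.552 to 0.599) in neutrophil-like cells. In tumor-like cells it was 6.59 (4.40 to 9.88) in WT IgG, from 178 and 27 UMIs, 2.83 (2.19 to 3.65) in A159V IgG, from 226 and 80 UMIs, and 1.497 (1.22 to 1.84) in A159V anti-PD1, from 223 and 149 UMIs. In monocyte-like cells it was 2.80 (1.77 to 4.42), 1.86 (1.47 to 2.35) and 2.89 (2.22 to 3.77) in the same 3 libraries. These 6 intervals all lay above the neutrophil-like ratio of their own library. Most tumor-like cells with the pair held few UMIs, since cells with 1 to 3 of them accounted for 139 of the 178 S100a8 UMIs in WT IgG. The source of these UMIs was not tested.

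**Figure D2:**
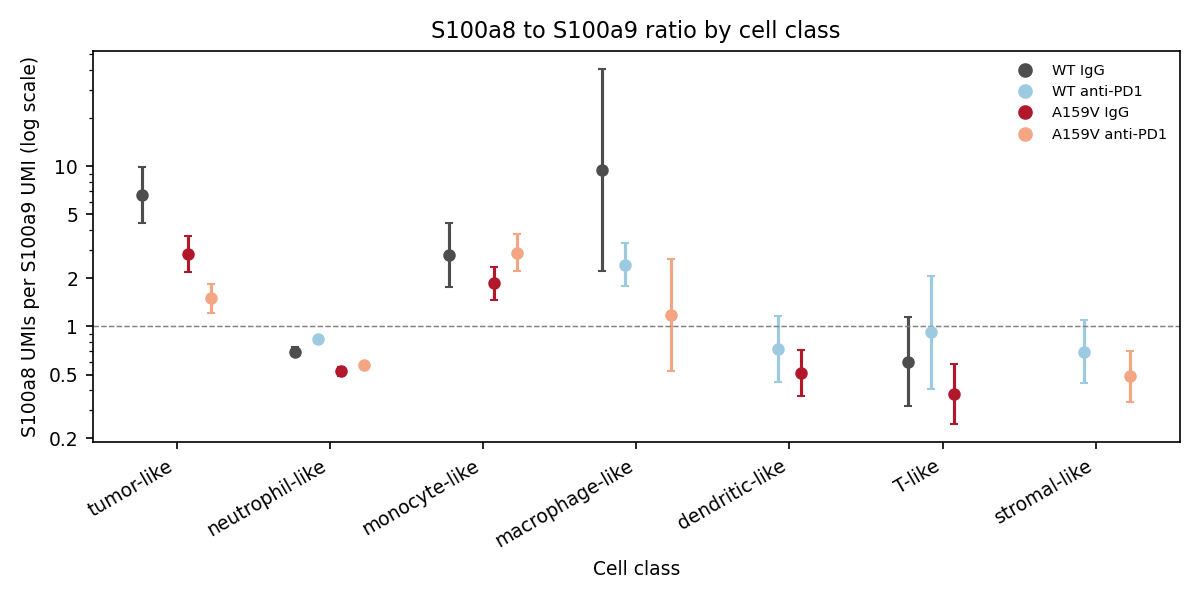
UMIs of S100a8 per UMI of S100a9 (vertical axis, log scale, dashed line at 1) in 7 cell classes, with 1 point per library of at least 50 cells and 20 UMIs of the pair and bars for the 95% counting interval. Neutrophil-like cells lie between 0.524 and 0.833, below the line, and the tumor-like and monocyte-like points lie above it.

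In monocyte-like cells S100a8 was at 14.04, 4.64, 63.5 and 37.4 CPM and S100a9 at 5.01, 9.28, 34.2 and 12.9 CPM. The higher values were in the A159V libraries. After thinning, 0.859%, 0.820%, 3.02% and 1.77% of monocyte-like cells had an S100a8 UMI (13, 1, 38 and 33 cells), between the T-like and the neutrophil-like shares. Before thinning it was 2.20%, 1.34%, 4.40% and 4.04%. In A159V IgG 83 of 1499 monocyte-like cells held the 303 UMIs of the pair, 50.5% of them in 5 cells. Cells with 1 to 3 UMIs held 77 of S100a8 and 22 of S100a9 there, and the 6 cells with over 10 UMIs held 88 and 77.

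In 3 groups of T-like, dendritic-like and stromal-like cells the pair came from a handful of cells. In T-like cells of A159V IgG, 8 of 765 cells held 102 UMIs, 97.1% of them in 5 cells. Dendritic-like cells of A159V IgG had 154 UMIs in 9 of 439 cells, and stromal-like cells of A159V anti-PD1 had 128 UMIs in 6 of 161 cells, with 97.4% and 99.2% in 5 cells. The S100a8 to S100a9 ratios of these 3 groups, 0.378 (0.245 to 0.585), 0.510 (0.365 to 0.712) and 0.488 (0.338 to 0.706), had intervals that held the neutrophil-like ratio of their library. Whether these cells were undetected doublets with a neutrophil was not tested.

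S100a4, the myosin-binding member, varied most between the tumor genotypes. Its CPM in tumor-like cells was 1811 (1801 to 1822) for WT IgG, 224 (221 to 228) for A159V IgG and 163 (160 to 165) for A159V anti-PD1. WT IgG stood apart, and no interval overlapped another. After thinning to 1000 UMIs, 64.4% of WT IgG, 15.3% of A159V IgG and 12.4% of A159V anti-PD1 tumor-like cells had an S100a4 UMI, where 97.4%, 78.8% and 82.2% had one before thinning, at median depths of 29636, 30772 and 42323 UMIs. Among other classes it was highest in monocyte-like cells, at 2205, 1102, 2160 and 1818 CPM, and in dendritic-like cells, at 1967, 1366, 2007 and 1603 CPM, which came first in WT anti-PD1. T-like cells followed at 987, 774, 783 and 987 CPM, and macrophage-like cells had 531, 319, 311 and 382 CPM. Stromal-like cells, in which S100a4 is often used as a fibroblast marker, had 288, 387, 293 and 222 CPM. They were below T-like cells in every library, but above macrophage-like cells in WT anti-PD1 and above tumor-like cells in the A159V libraries. Neutrophil-like cells had 354, 58.7, 329 and 73.9 CPM, from 24 to 58 UMIs. The T-like clusters differed, with 281 to 334 CPM in the cluster led by Gm2682 and 1299 to 1575 CPM in the cluster led by Themis.

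S100a6 (calcyclin) was above 1000 CPM in every class but B-like cells, which reached 50 cells in A159V anti-PD1 alone and had 129 CPM there. Tumor-like cells had 11159 CPM in WT IgG, 6331 CPM in A159V IgG and 6217 CPM in A159V anti-PD1. Stromal-like cells came next, at 7500, 5619, 6263 and 5016 CPM, and their interval overlapped that of tumor-like cells in A159V IgG alone. Monocyte-like cells had 4006, 1855, 4024 and 3260 CPM. Neutrophil-like cells differed little between libraries, at 3140, 3128, 2999 and 3061 CPM, all with overlapping intervals. Macrophage-like cells (1982, 1203, 1625 and 1496 CPM) and T-like cells (1695, 1427, 1658 and 1703 CPM) were below monocyte-like cells in each library.

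S100a10 and S100a11, the annexin partners, differed in where they were high. S100a10 was at 1357, 869 and 913 CPM in tumor-like cells of WT IgG, A159V IgG and A159V anti-PD1. It was at 1141, 424, 1346 and 1041 CPM in monocyte-like, 925, 451, 1023 and 804 CPM in T-like and 878, 526, 940 and 732 CPM in stromal-like cells. Neutrophil-like cells were the low end, at 91.5, 30.4, 196 and 70.8 CPM from 15 to 34 UMIs. S100a11 was instead high in neutrophil-like cells, at 3170, 2089, 2340 and 2473 CPM. It was at 1790, 738, 2426 and 1973 CPM in monocyte-like and 1893, 1057, 1907 and 1469 CPM in stromal-like cells. Tumor-like cells had 787, 753 and 672 CPM and T-like cells 549, 286, 598 and 545 CPM. A pseudogene, S100a11-ps, is annotated elsewhere, and reads that it shares with S100a11 cannot be told apart here.

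S100a13, S100a16 and S100a1 had their highest levels outside the immune classes. S100a13 was highest in stromal-like cells, at 470, 436, 324 and 370 CPM, and lowest in neutrophil-like cells, at 36.6, 52.5, 52.0 and 43.1 CPM. In tumor-like cells it was at 176 CPM in WT IgG, 82.9 CPM in A159V IgG and 81.7 CPM in A159V anti-PD1. S100a16 marked stromal-like cells, at 481, 435, 406 and 361 CPM, and the 182 endothelial-like cells of WT anti-PD1, at 252 CPM. It was at 12.4, 8.13 and 6.26 CPM in tumor-like cells and at 0 to 7.34 CPM in the immune classes. S100a1 was highest in tumor-like cells, at 157, 128 and 129 CPM. Stromal-like cells had 58.0, 47.3, 55.7 and 37.8 CPM of S100a1, and macrophage-like cells 24.95, 47.2, 26.7 and 33.3 CPM. No S100a1 or S100a16 UMI was found in the neutrophil-like cells of WT IgG, which allows up to 18.3 CPM of each.

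The first comparison asked how the members differed between A159V IgG and WT IgG tumors. In tumor-like cells 2 of 6 members tested were past 2-fold, both lower in A159V IgG, beside 4.25% of all genes. S100a4 had a log2 ratio of −3.01 (−3.03 to −2.99) and S100a13 one of −1.08 (−1.12 to −1.03). S100a6 was at −0.82 (−0.82 to −0.81), S100a10 at −0.64 (−0.66 to −0.63), S100a1 at −0.29 and S100a11 at −0.06, while S100a8, S100a9 and S100a16 were below 20 CPM. The median ratio of the 9 members was −0.55 against 0.014 over all genes tested. The direction of S100a11 turned under median-of-ratios scaling, to 0.03.

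Because the tumor-like clusters differed in size between these libraries (495, 324 and 1212 cells in WT IgG against 1170, 1492 and 147 in A159V IgG, for the clusters led by Il1rl1, Adam2 and Tafa1), each was compared on its own. S100a4 was at 1289, 729 and 2481 CPM in the 3 clusters of WT IgG and at 245, 165 and 1039 CPM in those of A159V IgG. A159V IgG was the lower within each, at log2 ratios of −2.39, −2.14 and −1.26. The S100a13 ratios within clusters were −0.63, −0.56 and −0.60, so none was past 2-fold, and the ratio was −0.98 under median-of-ratios scaling. S100a6 was at −0.995, −0.815 and −0.324 and S100a10 at −0.61, −0.47 and −0.78. The summed stromal marker level of tumor-like cells was 434 CPM in WT IgG and 116 CPM in A159V IgG, and its part in these ratios was not tested.

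**Figure D3:**
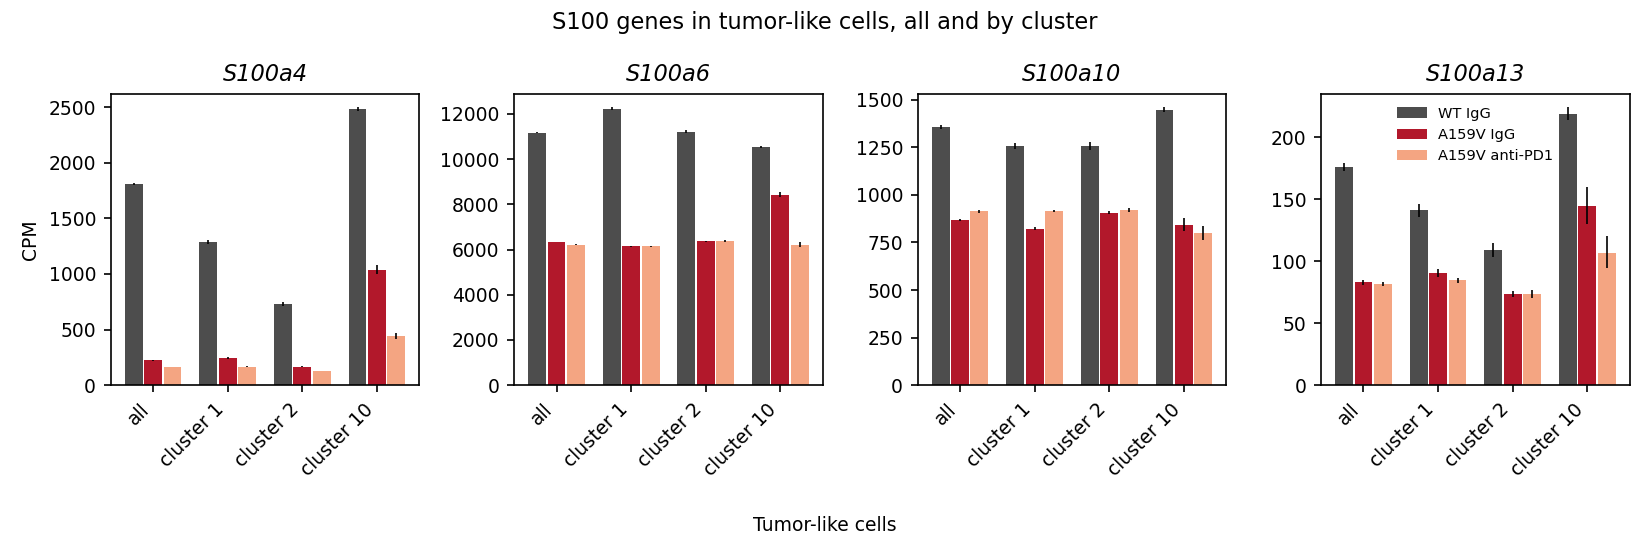
Levels (CPM, linear axis from 0) of S100a4, S100a6, S100a10 and S100a13 in all tumor-like cells and in cluster 1 (led by Il1rl1), cluster 2 (Adam2) and cluster 10 (Tafa1) of WT IgG, A159V IgG and A159V anti-PD1, with bars for the 95% counting interval. The WT IgG bar is the tallest in every set, and for S100a4 it stands at 1289, 729 and 2481 CPM in the clusters against 245, 165 and 1039 CPM in A159V IgG.

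In the immune and stromal classes few members were past 2-fold between A159V IgG and WT IgG. In monocyte-like cells 1 of 7 members tested was past 2-fold, S100a8 at 2.10 (1.73 to 2.47), beside 0.839% of all genes. Its ratio was 1.01 in the cluster led by Lyz2 and Chil3, where S100a8 was at 20.1 CPM in WT IgG and 41.4 CPM in A159V IgG, and 3.13 in the cluster led by Slfn4 and Chil3. In neutrophil-like cells 1 of 7 was past 2-fold, S100a10 at 1.09 (0.226 to 1.963), beside 7.72% of all genes, and it was 0.96 under median-of-ratios scaling, 0.75 as a mean over cells and reversed under both marker gates. S100a8 was at −0.50 (−0.59 to −0.40) there and S100a9 at −0.09 (−0.16 to −0.01). In T-like cells 1 of 6 was past 2-fold, S100a9 at 2.50 (1.91 to 3.08), beside 0.789% of all genes, and it rested on the few cells described above. It was 0.02 with the first marker gate, and within the cluster led by Themis S100a9 had 6 UMIs in WT IgG (3.98 CPM, 1.46 to 8.66) and 0 in A159V IgG (up to 7.67 CPM). None of 6 in macrophage-like cells (0.947% of all genes) and none of 7 in stromal-like cells (1.21%) was past 2-fold, with S100a4 at −0.77 (−0.90 to −0.63) in macrophage-like and S100a13 at −0.54 (−0.69 to −0.39) in stromal-like cells. The median ratio of the 9 members, those under 20 CPM included, was −0.07 in neutrophil-like, 0.19 in monocyte-like, −0.24 in macrophage-like, 0.12 in T-like and −0.06 in stromal-like cells, against 0.16, 0.0062, 0.00060, 0.040 and 0.0065 over all genes tested.

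The second comparison set WT anti-PD1 against WT IgG. In this pair many genes were past 2-fold in every class, so the members are read against high background shares. In monocyte-like cells 4 of 5 members tested were past 2-fold, all lower in WT anti-PD1, beside 12.6% of all genes. These were S100a10 at −1.42 (−1.64 to −1.21), S100a11 at −1.28 (−1.44 to −1.12), S100a6 at −1.11 (−1.21 to −1.01) and S100a4 at a fold of 0.4999 (log2 interval −1.13 to −0.87). The median ratio of the members was −1.11 against 0.21 over all genes. The S100a4 ratio sat at the limit and was between −1.31 and −0.58 over the alternatives, and S100a6 was −0.92 in the cluster led by Lyz2 alone. Only 149 monocyte-like cells came from WT anti-PD1, and their summed stromal marker level was 744 CPM against 51.2 CPM in WT IgG. Their classical monocyte markers summed to 8809 CPM against 14394.5 CPM in WT IgG, and their macrophage markers to 3191 against 1758 CPM. The tumor marker Rhox5 was at 4.64 CPM against 20.9 CPM in WT IgG. The part of these marker differences in the ratios was not tested.

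In neutrophil-like cells 3 of 7 members were past 2-fold, all lower in WT anti-PD1, beside 23.8% of all genes. S100a4 was at −2.57 (−3.09 to −2.04), S100a10 at −1.56 (−2.44 to −0.67) and S100a9 at −1.07 (−1.13 to −1.01), with S100a8 at −0.81 (−0.89 to −0.74). S100a4 and S100a10 moved with the classical monocyte markers in these cells (3213 against 1191 CPM in sum), and the part of that difference was not tested. The S100a9 ratio depended on which cells were called neutrophils. It was −1.26 to −0.86 under the settings that kept clusters, short of 2-fold at −0.99 without cells that held stromal or keratin UMIs, −0.86 under median-of-ratios scaling and −0.86 with neutrophils of 500 or fewer genes joined. It was 1.15 and 2.39 when cells were placed one by one with either of 2 marker gates, under which the S100a8 ratio was 1.38 and 2.63. Of the cells that the first gate called neutrophils, 46.4%, 96.1%, 41.4% and 53.8% were neutrophil-like by clustering, and 17.0%, 78.1%, 15.5% and 19.96% for the second gate. Cells from other clusters were thus a larger share of the gated neutrophils in the other 3 libraries than in WT anti-PD1.

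In T-like cells 1 of 5 members was past 2-fold, S100a10 at −1.04 (−1.11 to −0.96), beside 9.85% of all genes, and its ratio was −1.26, −0.47 and −1.51 within the 3 T-like clusters. With predicted doublets kept it was −0.89. None of 6 in macrophage-like cells (13.5% of all genes) and none of 7 in stromal-like cells (8.02%) was past 2-fold. The macrophage-like cells of this pair lay mostly in different clusters. The cluster led by C1qa held 720 cells of WT IgG and 78 of WT anti-PD1, and the cluster led by Mmp12 held 97 and 1445. The part of this in the macrophage-like ratios was not tested. With WT IgG as the base, S100a10 was lower in each of the 7 classes compared, including the ratio of −0.25 (−0.34 to −0.16) in macrophage-like and −0.74 (−0.81 to −0.67) in stromal-like cells. Tumor-like cells held 84.3% of the S100a10 UMIs of WT IgG and 0.355% of those of WT anti-PD1. The part of tumor RNA carried into other classes of WT IgG in these ratios was not tested. Over the members of at least 20 CPM the median ratio was −0.81 in neutrophil-like, −0.11 in macrophage-like, −0.52 in T-like and −0.29 in stromal-like cells, against −0.067, −0.12, 0.23 and 0.073 over all genes tested. With the members under 20 CPM it was −0.60, 0.26, −0.67 and −0.14, so the sign for macrophage-like cells rests on members of few UMIs.

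The third comparison set A159V anti-PD1 against A159V IgG, and in each immune and stromal class fewer genes were past 2-fold than in the second comparison. In tumor-like cells none of 6 members was past 2-fold, beside 0.14% of all genes. S100a4 was at −0.46 (−0.49 to −0.43), and at −0.55, −0.36 and −1.23 within the 3 clusters, while S100a6 (−0.03), S100a13 (−0.02) and S100a1 (0.01) were near 0. In neutrophil-like cells 2 of 7 were past 2-fold, S100a4 at −2.14 (−2.82 to −1.46) and S100a10 at −1.46 (−2.21 to −0.70), beside 10.8% of all genes. These 2 rest on 24 and 23 UMIs in A159V anti-PD1, and turned to 0.42 and 0.32 with predicted doublets kept. Both moved with the classical monocyte markers (4472 CPM in A159V IgG, 1798 CPM in A159V anti-PD1), whose part was not tested. S100a8 and S100a9 were higher in A159V anti-PD1, by 0.44 (0.35 to 0.53) and 0.31 (0.24 to 0.37).

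**Figure D4:**
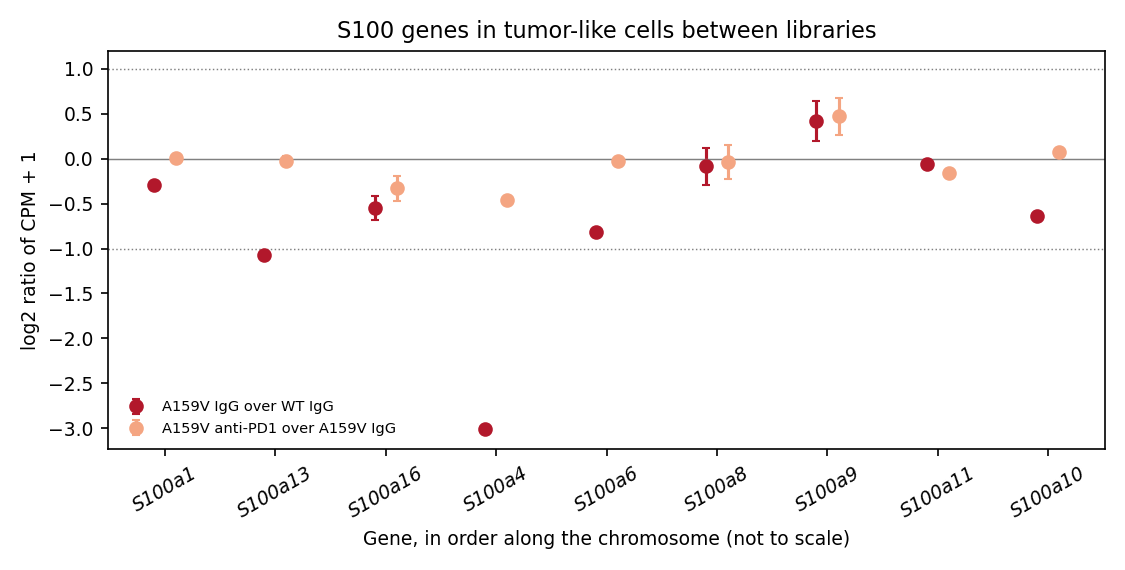
Log2 ratio of CPM + 1 for the 9 S100 genes in tumor-like cells, in their order along the chromosome, for A159V IgG over WT IgG and for A159V anti-PD1 over A159V IgG, with bars for the 95% counting interval and dotted lines at 2-fold. S100a4 (−3.01) and S100a13 (−1.08) lie below the lower dotted line in the first ratio, and no gene passes either line in the second.

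In monocyte-like cells 1 of 8 was past 2-fold, S100a9 at −1.34 (−1.74 to −0.93), beside 0.646% of all genes, and it was between −3.75 and −0.48 over the alternatives. In T-like cells 1 of 6 (0.699% of all genes) and in stromal-like cells 1 of 8 (4.66% of all genes) was past 2-fold, again S100a9, at −3.97 (−4.78 to −3.15) and 4.84 (3.76 to 5.91). Both follow the few cells with many UMIs, and the stromal-like ratio was 0.67 without cells that held a Ptprc UMI. None of 6 members was past 2-fold in macrophage-like cells (1.92% of all genes). In dendritic-like cells 2 of 7 were past 2-fold, S100a8 and S100a9 at −4.01 and −4.58 (3.78% of all genes). Both were also the members past 2-fold, of 7, in A159V IgG over WT IgG there (2.99% of all genes), and they follow the few cells of A159V IgG. In WT anti-PD1 over WT IgG, 1 of 5 was past 2-fold in dendritic-like cells, S100a10 at −1.20 (10.8% of all genes), and 2 of 6 in NK-like cells, S100a4 at −1.08 and S100a11 at −1.24 (18.8% of all genes). None of 6 was past 2-fold in NK-like cells in the other comparisons (1.6% of all genes in A159V IgG over WT IgG and 1.31% in A159V anti-PD1 over A159V IgG). The median ratio of the 9 members, again with those under 20 CPM, was −0.03 in tumor-like, 0.08 in neutrophil-like, −0.30 in monocyte-like, 0.26 in macrophage-like, −0.20 in T-like and −0.32 in stromal-like cells, against 0.075, −0.10, 0.043, 0.0074, 0.049 and 0.0027 over all genes tested.

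**Figure D5:**
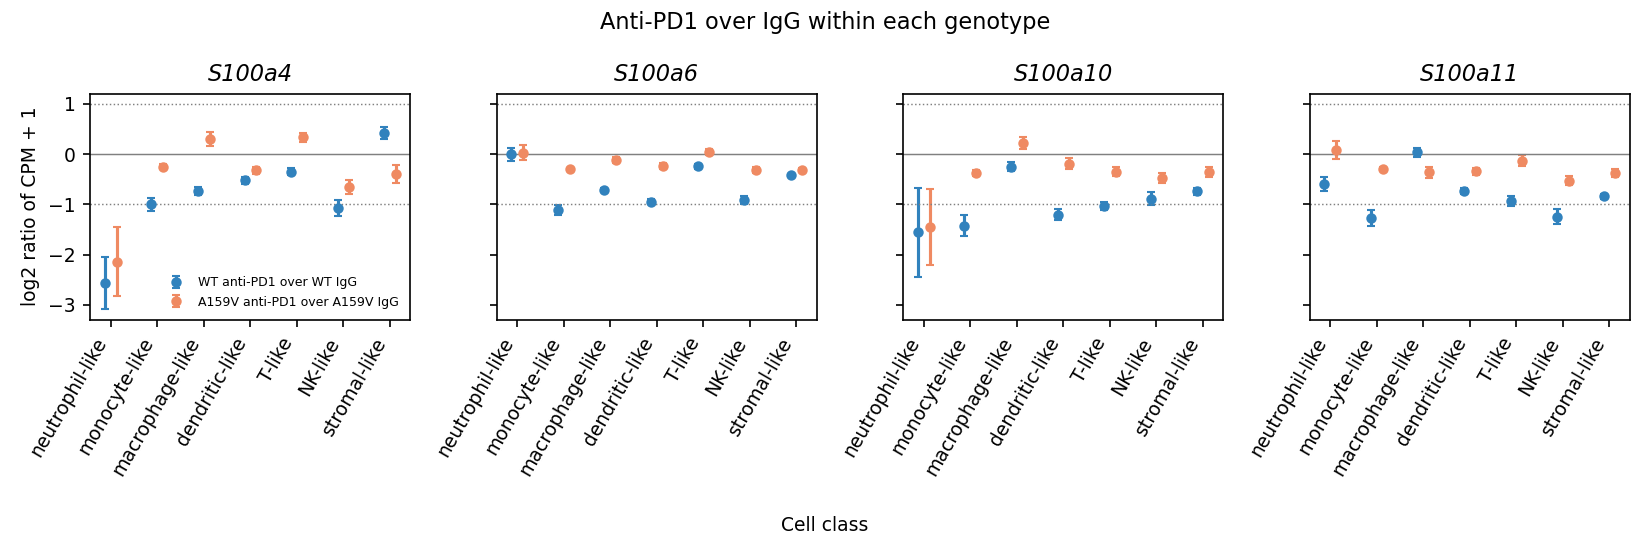
Log2 ratio of CPM + 1 for anti-PD1 over IgG of S100a4, S100a6, S100a10 and S100a11 in 7 cell classes, for WT and A159V tumors, with bars for the 95% counting interval and dotted lines at 2-fold. The WT points of S100a6, S100a10 and S100a11 in monocyte-like cells lie below the lower dotted line, at −1.11, −1.42 and −1.28, while the A159V points lie at −0.30, −0.37 and −0.30.

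Median-of-ratios scaling changed the balance of higher and lower genes in several comparisons. It moved the median of all genes by more than 0.1 in neutrophil-like cells of the 3 comparisons (0.16 to −0.0044 for A159V IgG over WT IgG, −0.067 to 0.16 for WT anti-PD1 over WT IgG, and −0.10 to 0.098 for A159V anti-PD1 over A159V IgG). It did so too for WT anti-PD1 over WT IgG in monocyte-like (0.21 to −0.099), macrophage-like (−0.12 to 0.025) and T-like cells (0.23 to 0.038). For A159V IgG over WT IgG the shares of genes past 2-fold upward and downward went from 1.05% and 3.20% to 1.32% and 2.43% in tumor-like cells, from 4.90% and 2.82% to 3.23% and 4.32% in neutrophil-like cells, and from 0.541% and 0.247% to 0.487% and 0.471% in T-like cells. For WT anti-PD1 over WT IgG they went from 9.30% and 14.5% to 13.2% and 10.5% in neutrophil-like cells, from 7.91% and 4.66% to 2.99% and 10.3% in monocyte-like cells, from 6.24% and 7.30% to 8.13% and 5.45% in macrophage-like cells, from 4.21% and 5.64% to 1.88% and 9.26% in T-like cells, and from 3.40% and 4.61% to 2.65% and 5.85% in stromal-like cells. For A159V anti-PD1 over A159V IgG they went from 0.109% and 0.0312% to 0.0774% and 0.0619% in tumor-like cells and from 2.62% and 8.16% to 5.19% and 5.59% in neutrophil-like cells. In T-like cells of that comparison a mean over cells took them from 0.441% and 0.258% to 0.487% and 0.152%.

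Receptors and partners of S100 proteins (15 genes) were followed in the same comparisons. Between A159V IgG and WT IgG, 1 of 9 tested in tumor-like cells was past 2-fold (4.25% of all genes), the annexin Anxa1, which was at 391 CPM in WT IgG and 178 CPM in A159V IgG (−1.13). In neutrophil-like cells 1 of 12 was past 2-fold (7.72% of all genes), the cytokine Il1a, at 829 and 289 CPM (−1.52). Between WT anti-PD1 and WT IgG, 3 of 12 in neutrophil-like cells were past 2-fold and lower, near the 23.8% of all genes, namely the calcyclin-binding Cacybp (36.6 and 6.29 CPM in WT IgG and WT anti-PD1, −2.37), the scaffold Ahnak (140 and 64.0 CPM, −1.12) and the receptor Bsg (189 and 89.2 CPM, −1.08). Cacybp averaged close to the minimum of 20 CPM. Over the alternatives Cacybp was between −5.33 and −1.52, Ahnak between −1.62 and −0.02 and Bsg between −2.2 and −0.86. In macrophage-like cells 2 of 13 were past 2-fold and higher in WT anti-PD1, near the 13.5% of all genes, Il1a (21.4 and 82.8 CPM, 1.90) and Ahnak (271 and 735 CPM, 1.44). The macrophage-like cells of these libraries lay mostly in different clusters, and the part of that was not tested. Between A159V anti-PD1 and A159V IgG, 1 of 13 in macrophage-like cells was past 2-fold, Il1a at −1.07 (1.92% of all genes), and 2 of 11 in stromal-like cells (4.66%), where Tlr4, a calprotectin receptor, was higher (1.01) and Bsg lower (−1.01). Both stromal-like ratios sat at the limit. Over the alternatives Tlr4 was between 0.17 and 1.05 and Bsg between −1.02 and −0.26. Of 7 other S100 genes only S100a3 in tumor-like cells reached 20 CPM, and it was not past 2-fold (0.55 for A159V IgG over WT IgG and −0.28 for A159V anti-PD1 over A159V IgG).

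Across 33 profiles of a class in a library, 8112 genes reached 50 CPM in at least 1 profile and were compared with each member by Pearson r of log2(CPM + 10). These are descriptions, since the profiles share libraries and classes. S100a8 and S100a9 were most alike among the 36 pairs of members, at 0.989, and S100a6 and S100a11 reached 0.678. The genes most like S100a8 were Wfdc21 (0.976), Mirt2 and Stfa2l1 (0.974 each), and those most like S100a9 were G0s2 (0.978), Stfa2l1 (0.975) and Cstdc4 (0.974). S100a16 went with Mxra8 (0.991), Prss23 (0.988) and Adamts12 (0.987). For the other members the leading genes were Dctn3 for S100a10 (0.905), Vdac1 for S100a1 (0.895), Ifitm2 for S100a11 (0.881), Bcl9l for S100a13 (0.852), Adprh for S100a6 (0.829) and H2afy for S100a4 (0.809), so that S100a4 had no gene as close as those of the calprotectin pair.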

How the data were processed

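The data were 3′ scRNA-seq counts of 4 libraries. The deposited counts are whole UMIs of each gene in each cell, produced by the authors with Cell Ranger, version 7.2.0 per the file headers and 5.0.1 in the submitters' processing notes, which also name mm10. They precede the authors' removal of background RNA and doublets, and no background RNA was subtracted here. Coordinates come from GENCODE M21 on the same assembly.

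Cells with more than 500 genes were kept (510, 590, 553 and 432 cells left out in WT IgG, then WT anti-PD1, A159V IgG and, last, A159V anti-PD1), and predicted doublets were removed at 0.8% per 1000 cells (425, 374, 529 and 631 cells). Total depth was 93030164, 54402632, 113779013 and 125227747 UMIs. Counts scaled to 10000 per cell gave 2000 variable genes without S100 or related genes, 20 principal components, 20 neighbors and Leiden clusters at resolution 1. Clusters were named from 16 marker lists by at least 3 markers detected in 10% or more of cells. Of 21 clusters, 1 stayed unnamed. Classes needed 50 cells in a library. Shares of cells with a UMI used cells thinned to 1000 UMIs.

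Levels have exact Poisson, shares exact binomial and ratios delta-method 95% intervals, all for counting error only, and a count of 0 was given the limit of 3 counts. No test was run between groups of 1 library. All 9 members were named, with the 3 genes most like each, and partners past 2-fold (at most 4 per comparison). The members and lists were chosen with earlier results of these data known. Alternatives changed filters, clustering, scaling, pseudocount (10 CPM) and minimum level (none or 100 CPM), and classes by a gate on marker UMIs in each cell. Totals without S100a8 and S100a9, ratios within clusters, a second gate on marker UMI shares (written after the first gate's output was seen) and neutrophil-like cells joined by cells of 500 or fewer genes were added after seeing the data. Scripts were tested on simulated data and ran in Python 3.11.15 with numpy 2.4.6, scipy 1.17.1, pandas 2.3.3, scikit-learn 1.9.0, igraph 0.11.9, leidenalg 0.10.2 and matplotlib 3.10.9.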

Additional observations from a re-analysis of the deposited data

Results flagged for a closer look

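Anti-PD1 over IgG had opposite directions in WT and A159V tumors for the pairs of gene and class listed here. Each was at 20 CPM or more, with ratios of at least 0.25 in size and a counting interval without 0 in both genotypes. The share of all genes that meet this rule is not given, so the number of pairs is not a result about the members. None of these differences was tested, since each rests on 4 single libraries. For S100a8 in neutrophil-like cells the log2 ratio was −0.81 in WT and 0.44 in A159V, a difference (WT minus A159V) of −1.254. For S100a9 there it was −1.07 and 0.31, a difference of −1.379. When cells of 500 or fewer genes with 2 or more neutrophil markers joined the class, the A159V ratio of S100a9 was −0.03, and with both marker gates the WT ratios were above 0. For S100a4 the ratios were −0.74 and 0.30 in macrophage-like cells (difference −1.03), −0.35 and 0.33 in T-like cells (−0.6842) and 0.43 and −0.40 in stromal-like cells (0.8225). In macrophage-like cells the A159V ratio was −0.01 as a mean over cells and −0.02 in the cluster led by C1qa. The WT ratio there compares libraries whose macrophage-like cells lay mostly in different clusters. In T-like cells the WT ratio was 0.02 in the cluster led by Gm2682, so the directions were not opposite there. In stromal-like cells the WT ratio was −0.49 in the cluster led by Clec3b and 1.02 in the cluster led by Tnc, and it was −2.53 and −2.08 with the marker gates, which gave both genotypes the same direction. Of the cells that the first gate called stromal, 19.7% in WT IgG and 83.1% in WT anti-PD1 were stromal-like by clustering. For the second gate these shares were 58.6% and 97.2%.

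Cells of 500 or fewer genes, which the main comparisons leave out, held much S100a8 and S100a9. S100a8 was at 1836, 4058 and 2612 CPM in such cells of WT anti-PD1, of A159V IgG and of A159V anti-PD1, against 1400 CPM in WT IgG. S100a9 was at 2584, 7920 and 3842 CPM, against 1829 CPM in WT IgG. Among them 111, 221, 210 and 156 cells had 2 or more neutrophil markers, in the order used above from WT IgG to A159V anti-PD1. S100a9 was at 8764, 6646, 19389 and 10610 CPM in these, so WT anti-PD1 was again lowest. Their S100a8 to S100a9 ratios were 0.764, 0.711, 0.510 and 0.679.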

How the results depend on the processing

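No paired analysis was possible because each group is 1 library and the labels give no replicate numbers. The counts that follow cover tumor-like, neutrophil-like, monocyte-like, macrophage-like, T-like and stromal-like cells, and leave out the dendritic-like and NK-like ratios. The 18 member ratios past 2-fold in these classes had 288 values under the alternatives, of which 8 were of the other sign, in 6 ratios. The other 135 member ratios of these classes had 2259 values, of which 214 were of the other sign, in 80 ratios. The 8 are given here, with 3 of the partner Il1a. With both marker gates S100a9 in neutrophil-like cells of WT anti-PD1 over WT IgG reversed to 1.145 and 2.386 and S100a10 of A159V IgG over WT IgG to −0.1276 and −0.2037, and with the second gate Il1a there reversed to 0.5853. With doublets kept, A159V anti-PD1 over A159V IgG reversed for S100a4 (0.4203) and S100a10 (0.3169) in neutrophil-like and Il1a in macrophage-like cells (0.06477). At resolution 0.5 Il1a in macrophage-like cells of WT anti-PD1 over WT IgG reversed to −0.1334. Within the T-like cluster led by Themis, S100a9 reversed to −2.316 for A159V IgG over WT IgG, and to 1.737 for A159V anti-PD1 over A159V IgG. The cause of these changes was not tested.

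Counts of members past 2-fold stayed within 1.5 times the reported count in 190 cases and moved in 59. For A159V IgG over WT IgG, monocyte-like cells had 2 with more than 1000 genes per cell, at resolution 0.5, with the first gate, with median-of-ratios scaling and without a CPM minimum, and 0 at 100 CPM. Tumor-like cells had 1 with either gate and with median-of-ratios scaling. Neutrophil-like cells had 0 as a mean over cells, with median-of-ratios scaling and with low-gene cells joined, and 3 with the second gate. T-like cells had 0 with the first gate, at 100 CPM and as a mean over cells, and 2 with doublets kept or no minimum. Macrophage-like cells had 2 with the first gate and 1 with no minimum, and stromal-like cells 1 with either gate. For WT anti-PD1 over WT IgG, neutrophil-like cells had 7 with either gate, T-like cells 0 with doublets kept, 2 with median-of-ratios scaling and 3 with no minimum. Macrophage-like cells had 1 with either gate, with doublets kept, as a mean over cells and with median-of-ratios scaling, and 3 with no minimum. Stromal-like cells had 4 and 3 with the gates and 1 as a mean over cells. For A159V anti-PD1 over A159V IgG, monocyte-like cells had 0 with the mitochondrial limit, doublets kept, WT anti-PD1 left out, cells of another compartment left out, the second gate, 100 CPM, a mean over cells and a pseudocount of 10, and 2 with more than 1000 genes. Neutrophil-like cells had 0 with doublets kept and with the first gate and 1 with the second. Macrophage-like cells had 1 with the first gate and with no minimum. T-like cells had 0 with the first gate, at 100 CPM and as a mean over cells, and 2 with doublets kept or no minimum. Stromal-like cells had 0 with doublets kept, cells of another compartment left out and 100 CPM, and 2 with no minimum. Depth limits S100a1, S100a13 and S100a16 in neutrophil-like cells, which rest on at most 50 UMIs in a library.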

Other observations

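Levels in dendritic-like and NK-like cells were as follows. In dendritic-like cells S100a10 was at 758, 328, 876 and 766 CPM in WT IgG, then WT anti-PD1, A159V IgG and, last, A159V anti-PD1. In NK-like cells S100a4 was at 674, 319, 554 and 349 CPM and S100a11 at 850, 358, 1079 and 748 CPM. Of the partners tested in dendritic-like cells, the calprotectin co-receptor Cd14 was the 1 of 11 past 2-fold for A159V IgG over WT IgG (2.99% of all genes) and the 1 of 12 for A159V anti-PD1 over A159V IgG (3.78%), at 173 CPM in WT IgG, 65.7 CPM in A159V IgG and 206 CPM in A159V anti-PD1. For WT anti-PD1 over WT IgG the scaffold Ahnak was the 1 of 11 in dendritic-like cells (262 and 606 CPM in WT IgG and WT anti-PD1, 10.8% of all genes) and the 1 of 9 in NK-like cells (282 and 672 CPM, 18.8%).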
